A study of Mus musculus with 2 samples.

Results

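Podocyte and glomerular genes were followed as a set of 5 among the 20299 genes measured: Nphs1, Podxl, Synpo, Wt1, and Cdkn1c. The set was given by name, and all 5 genes were measured. Their unique molecular identifiers (UMIs, each standing for 1 captured mRNA molecule) were summed for each of the 16 cell clusters that the authors named. A cell was also scored by how many of the 5 genes gave it at least 1 UMI. By the rule of 2 or more genes, 118 of 1844 Vsir-/- cells and 5 of 5470 WT cells were found.

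Podocytes are the epithelial cells that wrap the glomerular capillaries, and the junction between their foot processes, the slit diaphragm, is the last layer of the kidney filter. Nephrin (Nphs1) spans that junction, and podocalyxin (Podxl) is the negatively charged coat protein of the podocyte surface, which endothelial cells also carry. Synaptopodin (Synpo) organizes actin in the foot processes, Wt1 is the transcription factor that keeps podocyte identity, and Cdkn1c encodes p57, a cyclin-dependent kinase inhibitor of the Cip/Kip family found in mature podocytes that no longer divide. Nephrin marks podocytes narrowly, whereas the other genes have sources elsewhere in the kidney.

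The cells came from kidneys of C57BL/6 mice aged 8 weeks with nephrotoxic nephritis (NTN), a glomerular injury produced by sheep serum against glomerular antigens. WT mice and Vsir-/- mice, which lack the immune checkpoint VISTA, had both been immunized with 200 µg sheep IgG in Freund's complete adjuvant and were given 2 µL/g nephrotoxic serum intravenously 4 days later. This serum dose is that of the labels, and the study's methods give another. Each genotype had 1 library, and the number of mice behind it is not given in the sources used here. Per the labels, the WT library was sorted for CD45, the leukocyte surface marker, while all kidney cells went into the Vsir-/- library. The study's methods describe a CD45 sort without this distinction, so genotype and sort cannot be told apart in any comparison below. Fewer cells of a type and less RNA per cell likewise cannot be told apart in summed UMIs.

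The WT library held 32799550 UMIs (median 4726.5 per cell) and the Vsir-/- library 18601189 (median 6673). Cells with more than 20000 UMIs numbered 96 in WT and 174 in Vsir-/-. Vsir itself gave 4278 UMIs in WT and 8 in Vsir-/-. Ptprc, which encodes CD45, was detected in 94.2% and 73.6% of cells. The libraries shared 5 cell barcodes, and none of these cells held a UMI of the 5 genes. Cells are not replicates, so no p-value was computed, and the 95% intervals given cover counting error only. Levels are UMIs per 1000000 UMIs of the same cells (CPM).

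All 5 genes were at least 2-fold higher in the Vsir-/- library when all cells were summed, against a background of 33.9% of the 15687 genes with at least 20 UMIs. A further 10.2% of genes were at least 2-fold lower. Podxl, Synpo, and Wt1 reached 20 UMIs through the Vsir-/- library alone, so that the filter fixed their direction. Podxl went from 0.335 CPM (11 UMIs) in WT to 138 CPM (2569 UMIs), a ratio of 412 (95% interval, 230 to 826). Synpo went from 0.183 CPM (6 UMIs) to 37.2 CPM (692 UMIs), a ratio of 203 (93.0 to 556). Among the genes with a WT UMI, Podxl and Synpo had the largest ratios, on few WT UMIs. Wt1, at 0 WT UMIs, could not be placed in this order. Cdkn1c was 2.53 CPM (83 UMIs) in WT and 69.8 CPM (1299 UMIs) in Vsir-/-, which is 27.6-fold higher (22.1 to 34.9). Wt1 gave 0 UMIs in WT and 179 in Vsir-/- (9.62 CPM), a ratio of 105 when the WT library is allowed 3 counts, with an exact 95% lower limit of 84.7. Nphs1 showed the smallest ratio, with 3.57 CPM (117 UMIs) in WT and 10.0 CPM (186 UMIs) in Vsir-/-, or 2.80-fold (2.21 to 3.56).

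**Figure D1:**
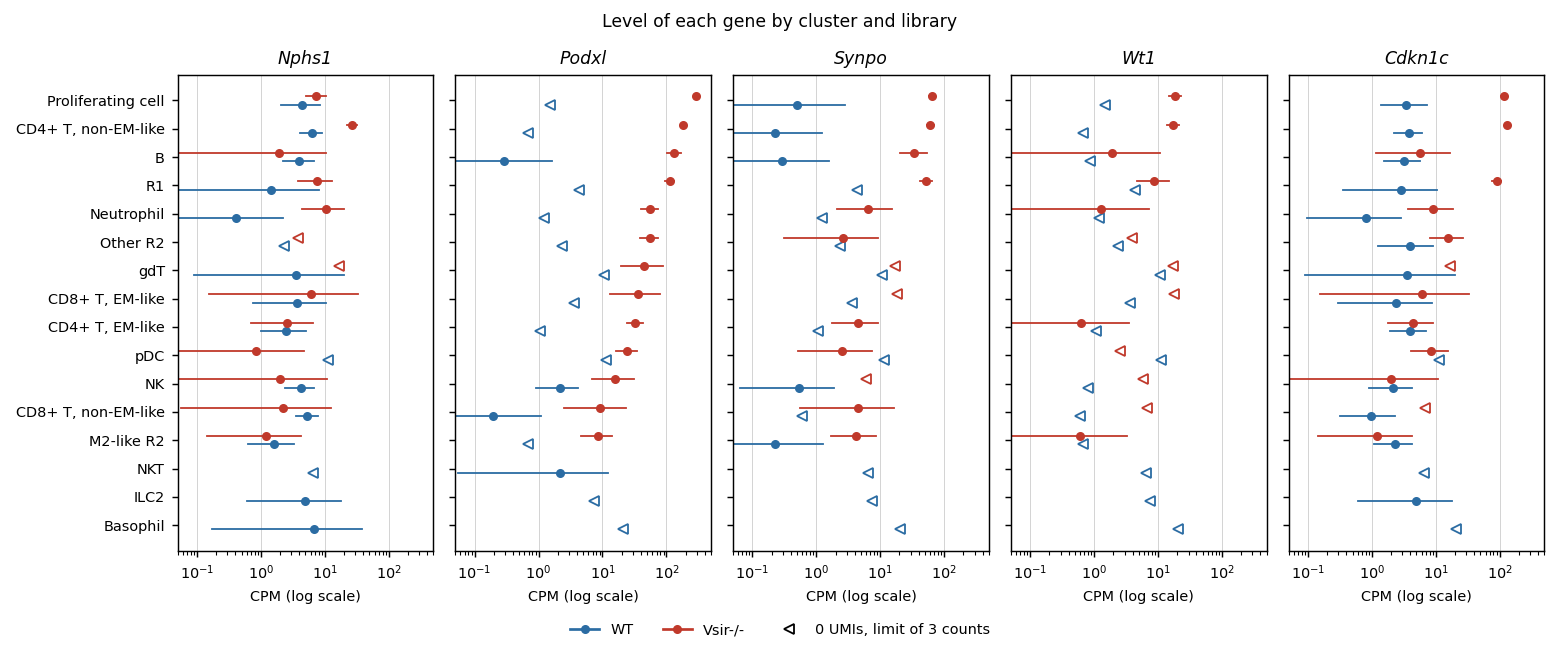
Level of each gene in CPM (log axis) by cluster, for the WT (blue) and Vsir-/- (red) libraries, in clusters with at least 20 cells; dots are summed UMIs over all UMIs of the cluster, bars are 95% Poisson intervals, and open triangles mark the limit of 3 counts where no UMI was found. Wt1 and Cdkn1c stand highest in 3 Vsir-/- clusters, proliferating cells, non-EM-like CD4+ T cells, and R1 macrophages, with B cells joining them for Podxl and Synpo. WT Nphs1 and Cdkn1c lie at 6.88 CPM or less in every cluster.

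These sums rested on few Vsir-/- cells, and on fewer for some genes than for others. Of the Nphs1 UMIs in Vsir-/-, 50% lay in 3 cells and 90% in 17, and the top cell alone held 32.3%. For Cdkn1c, 2 cells carried 50% and the top cell 28.8%. Wt1 reached 50% with 8 cells. Podxl and Synpo were more widely spread, with 26 and 23 cells for 50% and 105 and 73 cells for 90%. In WT the picture was different, since the 117 Nphs1 UMIs came from 114 cells, no cell had more than 2, and 56 cells were needed for 50%.

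**Figure D2:**
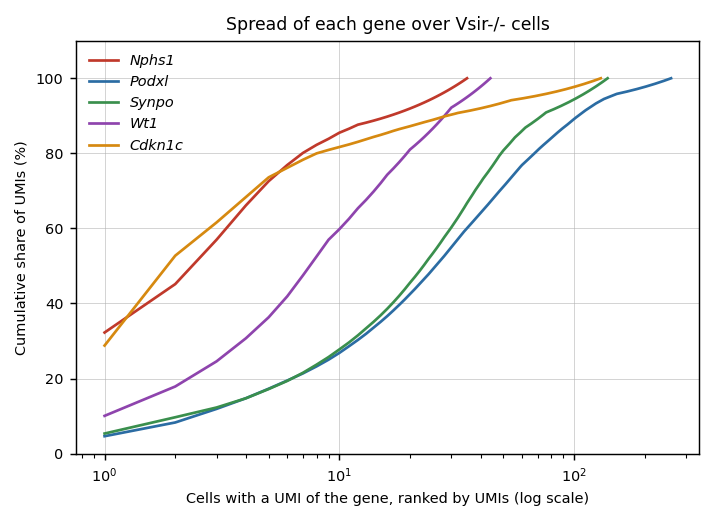
Cumulative share (%) of the UMIs of each gene in the Vsir-/- library over cells ranked by their UMIs of that gene (log axis). Nphs1 and Cdkn1c climb within the first few cells, the top cell holding 32.3% and 28.8%, whereas Podxl and Synpo rise slowly from 4.63% and 5.35%.

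Nphs1 had 2 or more UMIs in 12 Vsir-/- cells, a threshold chosen after the values were seen, and those 12 cells held 163 of its 186 UMIs (87.6%). From the highest to the lowest they carried 60, 24, 22, 17, 12, 8, 6, 4, 3, 3, 2, and 2 Nphs1 UMIs. The upper 5 of them carried most of the nephrin signal. Of the other genes, Cdkn1c had 79.6% of its UMIs there, Wt1 43.0%, Synpo 27.0%, and Podxl 23.8%. Podxl ranged from 15 to 119 UMIs per cell and Synpo from 2 to 37, with neither at 0. Wt1 was absent from 2 of the 12 cells and otherwise reached 18, and Cdkn1c ran from 0 to 374.

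None of the 16 clusters is named for podocytes, and the 12 cells had been placed in 4 leukocyte or cycling clusters: 6 in non-EM-like CD4+ T cells (EM, effector memory), 4 in proliferating cells, 1 in R1 macrophages, and 1 in neutrophils. Their T cell receptor and CD3 transcripts (6 genes) summed to 0 to 5 UMIs per cell, with a median of 0. Ptprc gave 0 to 8 UMIs (median 0.5), with 0 in 6 of the 12. Depth was 34002 to 116823 UMIs in 11 of the cells. The cell in the neutrophil cluster had 8775 UMIs, of which 1422 were S100a8 and 1309 were S100a9, the calprotectin genes of neutrophils, beside 8 Nphs1 and 15 Podxl UMIs. Low T cell signal was not confined to these 12 cells. Over the whole non-EM-like CD4+ cluster, all 6 T cell genes were lower in Vsir-/- than in WT (median log2 ratio −3.75). Ptprc was lower too (−3.40), so the authors' name for this cluster need not hold for its Vsir-/- cells.

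Besides podocyte genes, 11 of the 12 cells carried glomerular endothelial transcripts at 10494 to 18887 CPM (419 to 1538 UMIs over 15 genes). The cell in the neutrophil cluster had 684 CPM (6 UMIs). Endomucin (Emcn), a sialomucin of capillary endothelium, was 2891 CPM over the 12 cells and 512 CPM in the rest of the Vsir-/- library. For Kdr, the receptor of podocyte-derived VEGF, the values were 1683 and 257 CPM, and for Ehd3, an endocytic protein of glomerular endothelium, 2130 and 304 CPM. Mesangial and pericyte transcripts (13 genes) passed 1000 CPM in 10 of the 12 cells, with a median of 4988 CPM. The exceptions were the R1 cell (2 UMIs) and the neutrophil-cluster cell (0 UMIs). Doublets had not been called, and the part of shared droplets in these profiles was not tested.

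**Figure D3:**
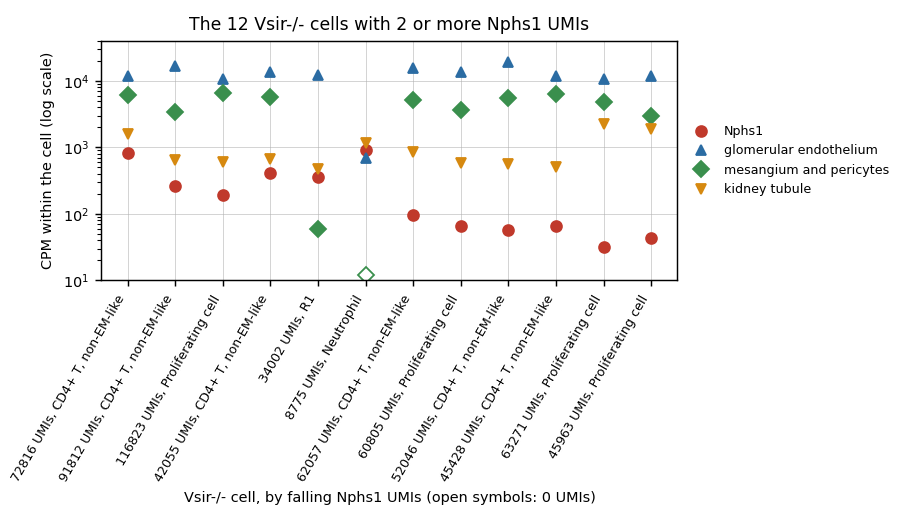
The 12 Vsir-/- cells with 2 or more Nphs1 UMIs, ordered by falling Nphs1 UMIs and labelled with total UMIs and cluster, with CPM within each cell (log axis) of Nphs1 and the summed glomerular endothelium, mesangium and pericyte, and kidney tubule lists; open symbols mark 0 UMIs. Endothelial transcripts sit between 10494 and 18887 CPM in 11 cells and at 684 CPM in the cell of the neutrophil cluster.

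The 12 cells were then set against all other Vsir-/- cells. Among 64 other podocyte genes with at least 20 UMIs, 47 were at least 2-fold higher and 2 lower, where the background was 14.2% of 14217 genes higher and 26.6% lower. The median log2 ratio was 1.75 for the 64 genes and 0.01 for all genes. The choice of cells by Nphs1 makes this a description. By role, 8 of 12 slit diaphragm and adaptor genes, 9 of 15 cytoskeletal genes, 6 of 9 transcription factor genes, 11 of 13 adhesion and basement membrane genes, and 13 of 15 secreted and surface genes were higher. So were 14 of 15 glomerular endothelial genes (median log2 ratio 2.23) and 12 of 13 mesangial and pericyte genes (2.44). The rise was thus not particular to podocyte genes.

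Genes that mark podocytes narrowly were among the leaders when genes were ranked by ratio in the 12 cells, a ranking added after the values were seen. Dendrin (Ddn), a slit diaphragm binding protein, was 30.2 CPM against 0.391 CPM elsewhere in the library, and Clic3 208 against 3.07 CPM. Tcf21, a transcription factor needed for podocyte development, was 76.2 against 2.12 CPM. Robo2, a receptor that binds nephrin through Nck, was 58.9 against 2.29 CPM. The same ranking also held Myl7, Rab3b, Tmem54, Sema3e, and Hs3st6.

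Broadly expressed genes of the lists moved less. Cd2ap, the adaptor that ties nephrin to actin, was 234 CPM in the 12 cells and 177 CPM elsewhere, and Vim, the intermediate filament vimentin, was 960 and 785 CPM. Itgb1, the integrin chain that anchors podocytes to the basement membrane, was 1029 against 393 CPM, and Vegfa, the endothelial growth factor that podocytes secrete, 180 against 42.8 CPM. Kidney tubule genes were lower in 30 of 30 cases, Gpx3 (glutathione peroxidase of proximal tubule) at 228 against 1611 CPM, and all 6 T cell genes were lower, Trbc2 at 5.75 against 250 CPM. Parietal epithelial genes, which mark Bowman's capsule, were higher in 0 of 5 and lower in 3.

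Podxl was the most widely detected of the set, with a UMI in 259 of 1844 Vsir-/- cells (14.0%; 95% interval, 12.5 to 15.7) and in 11 of 5470 WT cells. By cluster it was highest in proliferating cells at 286 CPM (1269 UMIs), followed by the non-EM-like CD4+ T cells at 183 CPM (843 UMIs), B cells at 132 CPM (69 UMIs), and R1 macrophages at 112 CPM (180 UMIs). The intervals of B cells and R1 macrophages overlapped, while both higher clusters stood apart from each other and from these. At the lower end were non-EM-like CD8+ T cells (9.05 CPM) and M2-like R2 macrophages (8.36 CPM), whose intervals overlapped. B cells are not known as a source of podocalyxin, and here 7 of 88 Vsir-/- B cells (median 3596.5 UMIs) had a Podxl UMI (7.95%), 1 of them with 32. Leaving out cells with 2 or more of the genes, the B cell level fell to 19.9 CPM and the neutrophil level to 29.0 CPM. The same step left 55.5 CPM in proliferating cells, 45.1 CPM in γδ T cells, 44.8 CPM in Other R2 macrophages, 29.9 CPM in the non-EM-like CD4+ cluster, and 14.2 CPM in R1 macrophages, so that B cells and neutrophils lay within the range of the others.

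Cells rich in Podxl but without Nphs1 carried endothelial transcripts throughout. There were 95 Vsir-/- cells with 5 or more Podxl UMIs and no Nphs1 UMI, thresholds set after the values were seen. All 95 passed 1000 CPM of glomerular endothelial transcripts, at 12210 CPM in sum, against 468.9 CPM in Vsir-/- cells with fewer than 2 of the genes. Mesangial transcripts passed that mark in 31 of the 95. Their leading genes by ratio were Dlk1, Rspo3, Ssu2, Tnfrsf11b, and Fez1, found in only 15, 20, 10, 19, and 12 of the 95 cells. Emcn stood at 2652 CPM. Part of the Podxl signal thus lay outside the cells with nephrin, in cells that carried endothelial transcripts.

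Among WT cells, 8 of the 11 Podxl UMIs fell in NK cells (2.13 CPM), a cluster singled out after the values were seen, against 3 UMIs (0.103 CPM) in all other WT cells, a ratio of 20.6 (4.95 to 121). Each of the 8 came from a different cell of 594. The Vsir-/- NK cells had 8 UMIs (15.8 CPM, in 5 of 67 cells). In that library they ranked 11 of 13 clusters for Podxl, below the library level of 138 CPM. Every ranked cluster there had 8.36 CPM or more, so a level like that of WT NK cells could not be told apart. Of the CD34-type and endomucin sialomucins related to podocalyxin by type, Cd34 gave 12 UMIs in WT and 2702 in Vsir-/-, Podxl2 gave 0 and 21, and Emcn 0 and 11188.

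Synpo gave 6 UMIs in 6 WT cells and was detected in 139 Vsir-/- cells (7.54%). Its level was 64.1 CPM among proliferating cells (285 UMIs), 60.9 CPM in the non-EM-like CD4+ cluster (280 UMIs), 51.8 CPM in R1 macrophages (83 UMIs), and 34.3 CPM in B cells (18 UMIs), and neighbours in this order had overlapping intervals. The next cluster, neutrophils, was lower at 6.43 CPM (5 UMIs) without overlap. In the B cell cluster, 12 of the 18 UMIs came from 1 cell, and no UMI was left once cells with 2 or more of the genes were removed. Of its UMIs, 93.1% lay in the 118 cells with 2 or more of the genes, a rule that Synpo itself entered. The paralogs Synpo2 and Synpo2l, which belong to muscle, gave 13 and 5 UMIs in Vsir-/- and 0 in WT, too few to be compared.

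Wt1 was found in 0 of 5470 WT cells (at most 0.0548% when 3 cells are allowed) and in 44 Vsir-/- cells (2.39%). Its 179 UMIs lay in proliferating cells (82 UMIs, 18.4 CPM), non-EM-like CD4+ T cells (79 UMIs, 17.2 CPM), and R1 macrophages (14 UMIs, 8.74 CPM), and single UMIs fell in B cells, neutrophils, EM-like CD4+ T cells, and M2-like R2 macrophages. Of the 44 cells, 39 also had Synpo, 38 Podxl, 30 Cdkn1c, and 15 Nphs1. Wt1 thus seldom appeared without another gene of the set, and 3 cells held it alone. Wt1os, the antisense gene beside it, gave 12 UMIs in the library, all 12 in cells with Wt1, and 0 in WT.

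Another group of Wt1 cells had little nephrin or podocalyxin (0 or 1 and 0 to 3 UMIs). In all, 5 Vsir-/- cells had 3 or more Wt1 UMIs (10, 9, 8, 4, and 3) with fewer than 5 Podxl UMIs, a class set after the values were seen. Their Cdkn1c was 0, and their endothelial transcripts were 666 CPM. Parietal epithelial genes were present in all 5 cells at 959 CPM, against 63.2 CPM in the 12 cells with 2 or more Nphs1 UMIs. The mesangial and pericyte list was higher still in each of the 5, at 2213 CPM in sum, of which Tagln alone made 1532 CPM. Pdgfra, Itga8, Gata3, Ren1, Agtr1a, Serpine2, and Rgs5 of that list were at 0. Tubule transcripts were 4522 CPM, but 967 of their UMIs came from 1 cell, against 24 to 136 in each of the others. No single list marked these cells. Cldn1, the tight junction protein of Bowman's capsule, had 2 to 52 UMIs per cell, Pax8 4 to 25, and Ncam1 9 to 51, while Krt7 had 0 or 1. The proliferating cluster held 4 of the 5 cells, including the deepest cell of the library (145955 UMIs), and their cell cycle genes summed to 80 to 336 UMIs. The fifth, in non-EM-like CD4+ T cells, had 0. The leading genes of the 5 cells were Ntm, Wnt16, Cyp1b1, Clec18a, and Aldh1a2, an enzyme that makes retinoic acid. Ntm was found in 2 of the 5 cells and Clec18a in 4.

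Cdkn1c split into a strong and a scattered part. In Vsir-/-, 2 cells held 374 and 311 UMIs, and the 3 clusters with the most multi-gene cells had 129 CPM (non-EM-like CD4+ T cells, 595 UMIs), 116 CPM (proliferating cells, 516 UMIs), and 89.9 CPM (R1 macrophages, 144 UMIs). In WT its 83 UMIs came from 78 cells with at most 2 each, and where detected it ran from 0.806 CPM in neutrophils to 4.96 CPM in type 2 innate lymphoid cells (ILC2), all neighbouring clusters overlapping. Infiltrating macrophages of the Other R2 cluster had 3.90 CPM (5 UMIs) in WT against 15.5 CPM (12 UMIs) in Vsir-/-, a ratio of 3.98 (1.30 to 14.4), and 9 of the 12 UMIs came from 1 cell.

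Of the rest of the Cip/Kip family, 1 of 2 genes was at least 2-fold higher in Vsir-/- (background 33.9%). Cdkn1a (p21) went from 49.9 CPM in WT to 132 CPM in Vsir-/-, and Cdkn1b (p27) from 162 to 95.5 CPM. In the 12 cells with 2 or more Nphs1 UMIs, Cdkn1b was 37.4 CPM against 97.7 CPM in other Vsir-/- cells. Of 5 genes from the imprinted domain around Cdkn1c, 3 were at least 2-fold higher in Vsir-/- over all cells (background 33.9%). These were Slc22a18 (11 WT and 614 Vsir-/- UMIs), Kcnq1 (0 and 122), and Phlda2 (0 and 81). All 3 passed the filter on low counts through the Vsir-/- library alone, so that the filter fixed their direction. In the 12 cells none of the 5 was 2-fold higher than elsewhere and 2 were lower (background 14.2% higher and 26.6% lower). Kcnq1ot1, the noncoding RNA of that domain, was 128 CPM in these cells and 99.9 CPM elsewhere, and Nap1l4 was 87.7 and 77.1 CPM.

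WT Nphs1 was scattered over leukocyte clusters, with 1 UMI in all but 3 of its cells. Of the 114 WT cells with a Nphs1 UMI (2.08%; 1.72 to 2.50), 113 had a Ptprc UMI, 1 had Podxl (0.877%, against 0.187% of the other WT cells), and 4 had Cdkn1c (3.51% against 1.38%). None had Wt1 or Synpo, which the WT library held in 0 and 6 cells. The endothelial list was 97.2 CPM in these cells and 90.2 CPM in WT cells without Nphs1, and the T cell list was 2957 and 2478 CPM. Their median depth was 7425 UMIs, against 4684.5 in the others. The lists around WT nephrin were thus close to those of other WT cells, at greater depth. Nphs1os, a gene annotated by RefSeq across Nphs1, was not among the genes measured, and whether strand was used in counting is not given in the sources used here, so a share of its reads in the Nphs1 counts was not tested.

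Across WT clusters, Nphs1 stood at 6.28 CPM (28 UMIs) for the non-EM-like CD4+ T cells, 5.34 CPM (27 UMIs) for non-EM-like CD8+ T cells, 4.26 CPM (16 UMIs) for NK cells, and 4.02 CPM (14 UMIs) for B cells, with overlapping intervals. It was 0.403 CPM in neutrophils (1 UMI) and 0 of 188 cells in Other R2 macrophages. Lymphoid clusters together had 4.55 CPM (98 UMIs) and myeloid clusters 1.11 CPM (10 UMIs), a ratio of 4.09 (2.13 to 8.81). In Vsir-/- cells with fewer than 2 of the genes, 11 lymphoid and 2 myeloid UMIs were left (1.66 and 0.441 CPM; ratio 3.76, 0.821 to 34.9). Of the 11, 5 came from the non-EM-like CD4+ cluster, whose Vsir-/- cells were low in T cell transcripts.

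The number of genes per cell gave the same division. In WT, 5267 cells had none of the 5 genes, 198 had 1, 4 had 2, and 1 had 3. In Vsir-/-, 1471 had none, 255 had 1, 49 had 2, 34 had 3, 23 had 4, and 12 had all 5. Podxl alone (146 cells), Cdkn1c alone (49), and Synpo alone (43) were the most common single patterns, and Podxl with Synpo and Cdkn1c (29) was the most common combination. In WT, Nphs1 alone (110) and Cdkn1c alone (74) made up nearly all. The share of cells with 2 or more genes was 0.0914% in WT (0.0297 to 0.213) and 6.40% in Vsir-/- (5.33 to 7.61). After each cell was thinned to 1000 UMIs, with 167 WT and 78 Vsir-/- cells left out as shallower, 0 WT cells and 21 Vsir-/- cells (1.19%; 0.738 to 1.81) remained.

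Depth increased with the number of genes, from a median of 6123 UMIs at 0 genes through 7885, 14291, 32787, and 57413 to 59288.5 at 5. The other transcripts turned over along the same scale. Glomerular endothelial transcripts were 150 CPM at 0 genes, 1805 at 1, 5421 at 2, 11614 at 3, 13196 at 4, and 12727 at 5. Mesangial and pericyte transcripts were 102 CPM at 0 genes, 5004 at 4, and 4254 at 5. Tubule transcripts were 10600 CPM at 0 genes, 11135 at 1, 886 at 4, and 1007 at 5, and Ptprc was 713 CPM at 0 and 24.7 CPM at 5. Among Vsir-/- cells over 20000 UMIs, the 70 with 2 or more genes had endothelial transcripts at 11124 CPM and the 104 with fewer had 228 CPM.

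**Figure D4:**
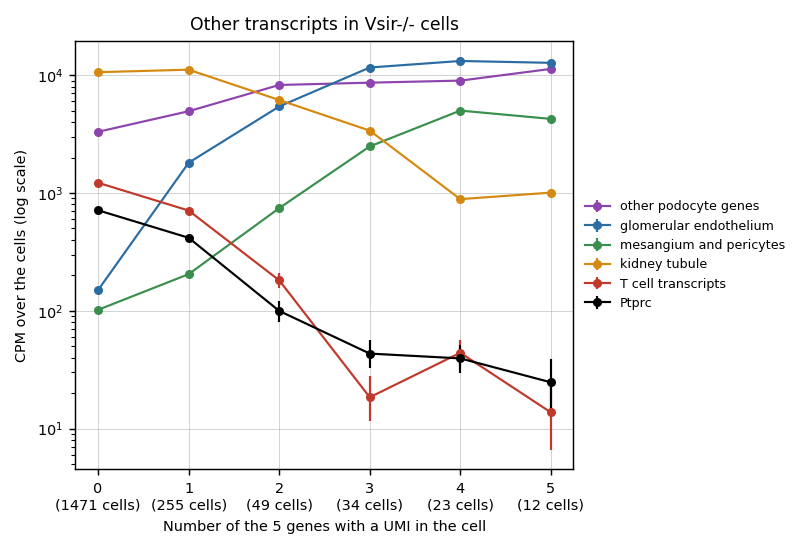
CPM (log axis) of the other podocyte genes, the glomerular endothelium, mesangium and pericyte, kidney tubule, and T cell lists, and Ptprc, in Vsir-/- cells grouped by how many of the 5 genes had a UMI (cell numbers under the axis); bars are 95% Poisson intervals. Endothelial transcripts climb from 150 CPM at 0 genes to 13196 at 4 and stand at 12727 at 5, while Ptprc drops from 713 to 24.7 CPM.

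Cells with 2 or more genes made up 51 of 189 proliferating cells in Vsir-/- (27.0%; 20.8 to 33.9), 38 of 349 non-EM-like CD4+ T cells (10.9%; 7.82 to 14.6), and 17 of 237 R1 macrophages (7.17%; 4.23 to 11.2). Lower numbers were found in B cells (2 of 88), neutrophils (2 of 158), Other R2 macrophages (2 of 131), plasmacytoid dendritic cells (2 of 86), and EM-like CD8+ T cells (2 of 28). M2-like R2 macrophages had 0 of 168 (at most 1.79% when 3 cells are allowed), at a median of 10074 UMIs, and the plasmacytoid dendritic cells had a median of 13776.5 UMIs. The WT proliferating cluster, with a median of 15615.5 UMIs, had 1 such cell of 118. T cell transcripts and Ptprc were lower in the Vsir-/- proliferating cluster than in the WT one, so the 2 need not hold like cells. Most multi-gene cells thus lay in 3 clusters of the Vsir-/- library. The 2 EM-like CD8+ T cells made a share of 7.14% (0.877 to 23.5), close to that of R1 macrophages.

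Relative to other Vsir-/- cells, the 118 cells were led by Cxcl13, a B cell chemokine (306 against 1.40 CPM), Sfrp2, a secreted modulator of Wnt signals (691 against 3.49 CPM), and Des, the intermediate filament desmin of mesangial cells and pericytes (149 against 1.12 CPM). The next genes were Ntrk2, Art3, Ptn, Dgkb, P2rx1, Gdf10, and Cd248. Of these, Ptn, the growth factor pleiotrophin, was the most abundant (1008 against 8.45 CPM, in 65 of the 118 cells), and Cd248, a surface protein of pericytes, was 128 against 1.33 CPM. The top 3 were detected in 35, 49, and 48 of the 118 cells, so none of them ran through the whole group.

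Over all cells, the wider podocyte list went the way of the 5 genes. Of 64 other podocyte genes tested, 53 were at least 2-fold higher in Vsir-/- and 0 lower (background 33.9% and 10.2%). Their median log2 ratio was 5.07 with the 24 genes at 0 in WT set to the limit of 3 counts, and 0.40 for all genes. Tjp1, which links the slit diaphragm to actin, went from 0.213 CPM in WT to 62.3 CPM in Vsir-/-, and Npnt, a basement membrane ligand for integrins, from 0.610 to 184 CPM. Nck1, which carries nephrin signals to actin, had 49.3 and 55.7 CPM, Myh9, a nonmuscle myosin, 370 and 341 CPM, and Dpp4, a peptidase of the cell surface, 30.1 and 36.9 CPM. These last 3 genes, which leukocytes also use, differed by less than 2-fold. The same direction was seen for all 15 endothelial genes, 12 of 13 mesangial and pericyte genes, 29 of 30 tubule genes, 5 of 5 parietal epithelial genes, and 6 of 6 stromal genes, so the podocyte genes shared their direction with the other kidney lists. In these lists too the filter fixed the direction of genes at 0 in WT, which numbered 8 endothelial, 7 mesangial and pericyte, 19 tubule, 1 parietal, and 4 stromal genes. The same held for the 24 podocyte genes at 0 in WT. It also held for genes with few WT UMIs, among them Tjp1 (7), Egfl7 (10), Slc34a1 (6), Slc4a4 (2), and Col1a1 (9). In the parietal list these were Cldn1 (10), Pax8 (6), and Krt7 (4), so the numbers at 0 understate the part that was fixed.

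Levels across the 29 sums of cluster and library with at least 20 cells were used to find the genes most like each of the 5. These correlations of log2(CPM + 10) are a description, because the sums share 2 libraries, their depth, and their free RNA. The 5 genes summed were nearest to Esam (Pearson r = 0.979), Egfl7 (0.976), Cdh5 (0.975), Slc9a3r2 (0.974), and Sparc (0.974), of which the first 3 are endothelial. Podxl, with the most Vsir-/- UMIs of the 5, followed this sum most closely (0.979). The values were 0.902 for Synpo, 0.854 for Cdkn1c, 0.823 for Wt1, and 0.547 for Nphs1. Podxl was nearest to Emcn (0.990) and Plpp1 (0.989). Nphs1 was nearest to Tdrd5 (0.819) and the podocyte gene Ddn (0.808), and Wt1 to Fam13c (0.990) and Foxc2 (0.982), a podocyte transcription factor. Synpo went with Myom2 (0.974) and C1qtnf1 (0.968), and Cdkn1c with Fam13c (0.960) and Nfatc4 (0.950). Between members, Wt1 and Cdkn1c were closest (0.945) and Nphs1 and Podxl farthest (0.417).

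Within single clusters, all 5 genes could be tested at 20 UMIs in 2 clusters. In the non-EM-like CD4+ T cell cluster all 5 were at least 2-fold higher in Vsir-/-, where 48% of 12583 genes were. All 6 T cell genes were lower there in Vsir-/-, so the 2 libraries did not hold like T cells under this name. Among proliferating cells 4 of 5 were higher (background 38% of 12248), and Nphs1 went from 4.48 CPM in WT to 7.42 in Vsir-/- (ratio 1.66, 0.776 to 3.94). All 6 T cell genes were lower in Vsir-/- among proliferating cells too (median log2 ratio −1.98), as was Ptprc (−2.80). The libraries therefore did not hold like cells under this name either. In R1 macrophages the 3 genes tested, Podxl, Synpo, and Cdkn1c, were higher (background 14.3%). Where tested in these clusters, Podxl, Synpo, and Wt1 each had 0 or 1 WT UMI. They reached 20 UMIs through the Vsir-/- library, so that the filter fixed their direction. The same held for Cdkn1c in R1 macrophages (2 WT UMIs). The direction of Cdkn1c was not fixed in the non-EM-like CD4+ cluster (17 WT and 595 Vsir-/- UMIs) or among proliferating cells (7 and 516). Nor was that of Nphs1 in either cluster. Podxl was the only gene tested in B cells, EM-like CD4+ T cells, neutrophils, Other R2 macrophages, and plasmacytoid dendritic cells, and was higher in each (background 15.8%, 10.4%, 9.74%, 6.71%, and 14.2%). It reached 20 UMIs there through the Vsir-/- library, with 0 or 1 WT UMI in each, so that its direction was fixed by the filter. In non-EM-like CD8+ T cells Nphs1 was the only gene tested and was lower, with 5.34 CPM in WT and 2.26 in Vsir-/- from 1 UMI (ratio 0.424, 0.0104 to 2.57; background of lower genes 12.9%). With 27 of its 28 UMIs in WT, that direction likewise followed from the filter, and the interval spanned 1.

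When the multi-gene cells were left out, Nphs1 was the gene whose ratio between the libraries changed sign. Over cells with fewer than 2 of the genes, its log2 ratio was −1.82, against 1.49 over all cells, so that its direction was reversed. The 5 genes themselves chose the cells left out, which held 92.5% of the Vsir-/- and 3.42% of the WT Nphs1 UMIs, so these values are a description. Wt1 was then not tested at 20 UMIs and had a lower bound of 2.19 on the log2 scale. Podxl kept a log2 ratio of 6.55 and Synpo 4.46, while Cdkn1c was left at 1.08. In these cells 29.7% of 15237 genes were at least 2-fold higher and 9.47% lower, and Podxl, Synpo, and Cdkn1c were among the higher and Nphs1 among the lower. Podxl and Synpo, with 11 and 6 WT UMIs even over all cells, reached 20 UMIs only through the Vsir-/- library. The filter thus fixed their direction, here and under the next condition. Nphs1 reached 20 UMIs through the WT library, since most of its Vsir-/- UMIs had been left out. With the further condition of a Ptprc UMI, 20.8% of genes were higher and 9.06% lower, Podxl and Synpo were still at least 2-fold higher, Nphs1 was lower, and Cdkn1c was below 2-fold at a log2 ratio of 0.90. Tubule transcripts in Vsir-/- cells with fewer than 2 of the genes were 10703 CPM, against 358 CPM over the WT library, and their part in the remaining Podxl and Synpo levels was not tested.

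**Figure D5:**
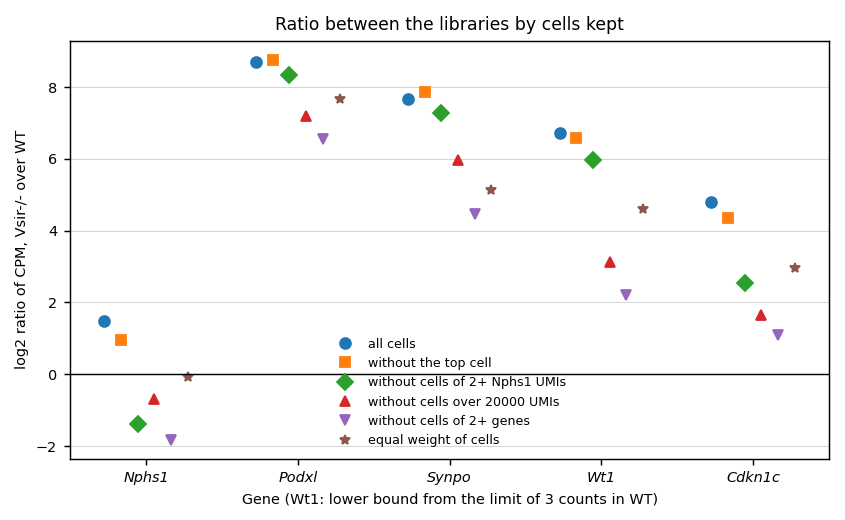
Log2 ratio of CPM, Vsir-/- over WT, for each of the 5 genes over all cells and after the cells named in the key were left out or weighted equally; the Wt1 values are lower bounds. Nphs1 moves from 1.49 to −1.82 when cells with 2 or more of the genes are removed, while Podxl stays at 6.55 or more under the settings drawn.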

How the data were processed

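The single WT library and the single Vsir-/- library were prepared from kidneys with NTN using the 10x 3′ kit (version 3.1), after digestion with 0.2 mg/ml liberase at 37 °C for 30 minutes. The authors processed reads with Cell Ranger (version 3.1.0), kept genes found in 5 or more cells and cells with 200 or more UMIs, clustered cells in Seurat (version 3.2.3, R version 4.0.3), and named the clusters. The submitters' processing notes also list mm9, with no role stated, and no coordinates were used. The deposited matrix gives raw counts (UMIs of each gene in each cell). The authors also deposited UMAP coordinates (a score on each of 2 axes for plotting cells), which were not used. Deposited percent values of mitochondrial UMIs (at most 10% in the cells held) served for the alternative limit of 5%. Removal of doublets is not given in the sources used here, and none was done.

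Samples were grouped by their labels and cells by the authors' library and cluster. For each cluster of each library the UMIs of a gene were added up and divided by the total of those cells to give CPM. With 1 library per genotype no test was possible. Intervals (95%) were exact Poisson for levels, Clopper-Pearson for shares, and exact conditional binomial for ratios, and they cover counting error only. A count of 0 was allowed up to 3 counts. A gene was called higher or lower at 2-fold with at least 20 UMIs in both libraries together. List medians between cells of the Vsir-/- library used a pseudocount of 0.5 UMI. Lymphoid clusters were the B, NK, NKT, T, and innate lymphoid cell clusters, and myeloid clusters the macrophages, neutrophils, and basophils, with proliferating and plasmacytoid dendritic cells in neither. Cells were thinned to 1000 UMIs without replacement (seed 7).

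The genes and lists were chosen with earlier results of these data known. Named genes were the 5 genes, the most abundant of each list, the nearest 5 to their sum and nearest 2 to each, and the 10 leading genes of cells with 2 or more of the genes. S100a8, S100a9, and other genes outside this rule, such as the leading genes of classes set later, were chosen after their values were seen. Some genes of the lists are not reported here by name. Hand2, Kirrel2, and Msln were not among the genes of the files. The 2-fold calls and the ratio intervals were tested on simulated counts of whole libraries, and the other steps were not simulated. Python 3.11.15, numpy 2.4.6, scipy 1.17.1, pandas 2.3.3, and matplotlib 3.10.9 were used. Alternatives changed the cells kept, the denominator, the weighting, the depth, the number of genes required, and the filter on low counts.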

Additional observations from a re-analysis of the deposited data

How the results depend on the processing

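No paired analysis was possible because each genotype had 1 library. Of 58 values recomputed under the alternatives, 25 stayed within their counting interval or 1.5 times the count, 28 moved, and 5 changed sign, all 5 for Nphs1. The log2 ratio of Nphs1 (1.49) was −0.082 with equal weight of cells, −1.82 without cells of 2 or more of the genes, and, among alternatives chosen after seeing the data, −1.40 without cells of 2 or more Nphs1 UMIs, −0.68 without cells over 20000 UMIs, and −1.59 over cells with a Ptprc UMI and fewer than 2 of the genes. It was 1.91 at no more than 5% mitochondrial UMIs, 0.96 without the top cell, and 0.91 over cells with a Ptprc UMI. At equal weight the Nphs1 levels were 3.14 CPM in Vsir-/- and 3.33 CPM in WT, a small difference without an interval. Cells left out by their Nphs1 UMIs held 87.6% of the Vsir-/- and 5.13% of the WT Nphs1 UMIs. That value is therefore a description, as are those without cells of 2 or more of the genes. Equal weight of cells gave 7.66 for Podxl (8.69), 5.13 for Synpo (7.67), 4.59 for the Wt1 bound (6.72), and 2.95 for Cdkn1c (4.79). Without cells of 2 or more of the genes these were 6.55, 4.46, 2.19, and 1.08, and without cells over 20000 UMIs 7.20, 5.96, 3.11, and 1.65. Over cells with a Ptprc UMI and fewer than 2 of the genes they were 5.92, 4.27, and 0.90 for Podxl, Synpo, and Cdkn1c, and Wt1 gave no value above the limit of 3 counts. Without cells of 2 or more Nphs1 UMIs the Wt1 bound was 5.96 and Cdkn1c 2.55. Cdkn1c was 4.34 without the top cell, and the Wt1 bound 5.85 over cells with a Ptprc UMI. The share of cells with 2 or more of the genes was 0.0914% in WT, and 0% after thinning or when 1 gene needed 2 UMIs, and 0.0183% for 3 or more genes. In Vsir-/- it was 6.40%, 1.19% after thinning, 3.74% for 3 or more genes, and 2.87% without cells over 20000 UMIs. The direction of Podxl, Synpo, Wt1, and Cdkn1c was the same in every alternative that gave a value. For Wt1 this was settled in advance by its 0 WT UMIs, and Podxl and Synpo had few WT UMIs that could reverse them. The cause of these changes was not tested beyond the cells each alternative leaves out. Low counts limit Wt1, Synpo, and Podxl in WT, which rest on 0, 6, and 11 UMIs, and with 1 library per genotype no spread between mice was measured.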
